A study of Mus musculus with 10 samples.

Results

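The mature microRNAs (miRNAs) of floxed control hearts under pressure load were described from 5 of the 10 libraries of a small RNA sequencing series, chosen as the libraries whose labels give the genotype as floxed control. In a floxed control the Cited4 gene carries recombination sites and is intact. The hearts came from male C57Bl6N mice and were taken 1 week after transverse aortic constriction, an operation that narrows the aorta and makes the left ventricle pump against a higher pressure. The other 5 libraries, from CITED4 knockout hearts after the same operation, served only to repeat the description, and the genotypes were not compared. Every heart had been operated on, so nothing here measures the response to the operation. The labels do not say whether the 5 libraries came from 5 animals or which part of the heart was used, and the spread between them may be technical.

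A miRNA is cut from a hairpin precursor, and either arm of the hairpin, 5p or 3p, can be loaded into an Argonaute protein as the guide while the other arm is degraded. The guide finds messenger RNAs mainly through its seed, bases 2 to 8, so miRNAs that share a seed form a family with overlapping targets. In the heart, miR-1 and miR-133 are the classic muscle miRNAs, miR-208a, miR-208b and miR-499 are encoded inside myosin heavy chain genes, and miR-21 is known for its increase in loaded and fibrotic hearts.

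The sequences below, from the RefSeq tables on GRCm38.p6, carry the results that follow, with the seed in capitals. The let-7 members come first because they share a seed and made up the second largest family:
let-7f-5p: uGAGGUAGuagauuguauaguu
let-7a-5p: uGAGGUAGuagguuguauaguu
let-7c-5p: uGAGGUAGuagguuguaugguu
let-7g-5p: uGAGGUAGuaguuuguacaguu
let-7b-5p: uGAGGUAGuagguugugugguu
let-7i-5p: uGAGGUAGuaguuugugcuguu
let-7d-5p: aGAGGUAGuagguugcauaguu
let-7e-5p: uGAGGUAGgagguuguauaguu

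The other abundant miRNAs shown are those whose level differed most, or least, from library to library, or that mark a cell type. They are miR-21a, the endothelial miR-126a, miR-30a and miR-16, which lead families of their own, the mesenchymal miR-199a, and miR-27b and miR-24, which were steady:
miR-21a-5p: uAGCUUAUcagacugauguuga
miR-126a-3p: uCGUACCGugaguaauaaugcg
miR-30a-5p: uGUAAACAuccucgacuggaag
miR-16-5p: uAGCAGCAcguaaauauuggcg
miR-199a-3p: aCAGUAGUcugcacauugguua
miR-27b-3p: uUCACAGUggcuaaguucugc
miR-24-3p: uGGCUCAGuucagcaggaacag

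The myosin-gene miRNAs are shown because the 3p arms of miR-208a and miR-208b share a seed, from which that of miR-499-5p differs only at its end. Their ratios differed between libraries:
miR-208a-3p: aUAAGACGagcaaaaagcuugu
miR-208b-3p: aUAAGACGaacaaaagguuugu
miR-499-5p: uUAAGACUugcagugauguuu

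Hairpin arms are shown for 2 hairpins with a nearly exclusive arm, miR-155 and miR-21a, and for 1 with balanced arms, miR-361:
miR-155-5p: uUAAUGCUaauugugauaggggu
miR-155-3p: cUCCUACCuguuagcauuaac
miR-21a-3p: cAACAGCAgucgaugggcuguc
miR-361-5p: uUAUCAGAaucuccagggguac
miR-361-3p: uCCCCCAGgugugauucugauuugu

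The deposited totals of the 5 libraries ran from 7526091 to 11608900 counts. Of 1131 miRNAs counted once each, 964 had a count in at least 1 control library, 527 had one in all 5, and a single library held between 670 and 771. A count of 0 allows up to 3 counts, which corresponded to 0.269 to 0.419 CPM depending on the library. Levels are given on a pair of scales. A share is the percentage of a library's counts, while CPM, the count relative to a fixed library size, uses library totals scaled by TMM factors, which ran from 0.825 to 1.21. Mature miRNAs are of similar length, so levels of different miRNAs are set side by side without a length correction, but no correction was made for how well each one is captured during library preparation.

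miR-1a-3p alone made up 33.7% ± 5.76 of counts (SD, n = 5 for all such values). Its share was 28.1%, 31.9%, 29.0%, 40.4% and 39.2% in controls 1 to 5. It ranked first in every library, at 5.32 ± 1.49 times the level of miR-378a-3p, the next in order, with a ratio between 2.78 and 6.43. On the CPM scale the miR-1a-3p level was 231363, 312213, 250726, 478138 and 475806, so that controls 4 and 5 lay above the other libraries on both scales.

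The counts were concentrated in few miRNAs. Between 3 and 5 miRNAs held 50% of a library, 25 ± 2.35 held 90%, and 104.8 ± 9.93 held 99%. The 10 most abundant miRNAs together made up 71.2% ± 3.07 and the 20 most abundant 86.3% ± 1.92. By mean CPM, miR-1a-3p was the only miRNA above 100000, 17 miRNAs between 10000 and 100000 held 50.8% of counts, and 33 between 1000 and 10000 held 11.8%. The 88 miRNAs between 100 and 1000 CPM held 3.10%, and the 516 seen at under 1 CPM held 0.0110%.

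After miR-1a-3p came miR-378a-3p at 6.80% ± 2.24, a miRNA encoded in the gene of the metabolic coactivator PGC-1β. It was followed by miR-21a-5p at 5.48% ± 3.46, let-7f-5p at 5.45% ± 1.02, let-7a-5p at 4.31% ± 0.783 and let-7c-5p at 4.14% ± 0.774. Next were miR-143-3p of smooth muscle at 3.10% ± 0.523, miR-30a-5p at 2.93% ± 0.720, miR-26a-5p at 2.91% ± 0.611 and miR-486a-5p at 2.35% ± 0.884. The second 10 began with miR-126a-3p at 2.27% ± 0.199, miR-16-5p at 2.10% ± 0.252 and miR-30d-5p at 2.06% ± 0.336. They continued with let-7g-5p, miR-29a-3p, miR-199a-3p, let-7b-5p and miR-27b-3p, at means between 1.19% and 1.55%. They ended with let-7i-5p at 0.863% ± 0.232 and miR-24-3p at 0.861% ± 0.198.

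Most places in that order were not separated by more than the spread between libraries. Of the 19 neighbouring pairs among the 20 most abundant miRNAs, 6 kept their order in all 5 libraries. These were miR-1a-3p over miR-378a-3p, let-7f-5p over let-7a-5p, miR-26a-5p over miR-486a-5p, miR-126a-3p over miR-16-5p, miR-30d-5p over let-7g-5p and miR-27b-3p over let-7i-5p. The rank of miR-199a-3p moved most, between 9 and 21, and that of miR-21a-5p lay between 2 and 9. The share of miR-21a-5p was 10.1%, 8.30%, 3.66%, 2.89% and 2.49% in controls 1 to 5, high in controls 1 and 2 and lower in the other libraries. That of miR-378a-3p was 4.99%, 4.98%, 10.4%, 6.29% and 7.30%, highest in control 3. As a repeat, 19 of the 20 and 8 of the 10 most abundant miRNAs were also among the 20 and 10 most abundant of the knockout libraries.

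**Figure D1:**
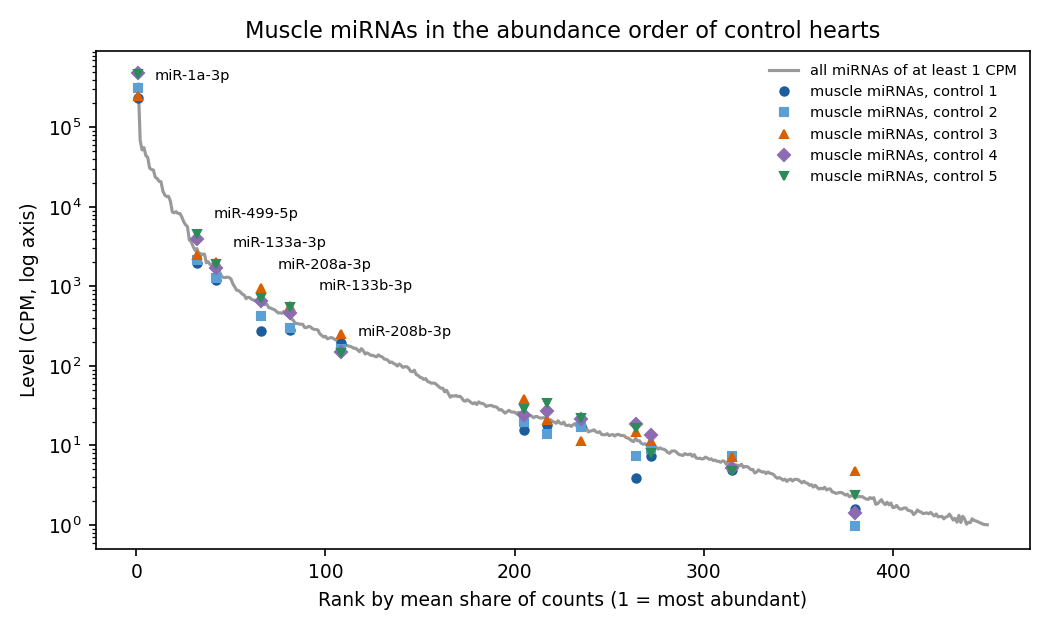
Level of each miRNA of at least 1 CPM (grey line, mean of 5 control libraries, log axis) against its rank by mean share of counts, with the members of the muscle list of at least 1 CPM as points, 1 per library. miR-1a-3p sits at rank 1 with 231363 to 478138 CPM, while the next muscle miRNA, miR-499-5p, lies at rank 32.

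miRNAs were then summed by seed, giving 797 families with at least 1 count. A miRNA without a matched sequence was placed by name or stood alone. The 5 largest held 71.6% ± 4.15 of counts, the 10 largest 85.1% ± 2.51, and 14 families held 90%. The miR-1a family, in effect miR-1a-3p alone, was the largest. It was formed by name, without miR-206-3p, which was kept apart.

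The let-7 family, known for its high level in differentiated tissues, was the second largest at 18.9% ± 3.24, with 9 members that were all above 100 CPM. Its share was 20.8%, 21.1%, 13.4%, 20.5% and 18.7% in controls 1 to 5, lowest in control 3 and at least 18.7% in the others. The miR-30 family held 6.73% ± 1.62, with 5.21%, 6.11%, 9.48%, 6.22% and 6.63%, and was highest in the same control 3. miR-21a-5p, the next after the miR-30 family, formed a family of 1 member seen. miR-378a-3p, just ahead of the miR-30 family, had no matched sequence and stood alone by name, with miR-378b, at 311 CPM, counted apart. The miR-26 family held 3.16% ± 0.639 and that of miR-16, which restrains the cell cycle, 2.55% ± 0.300. Single members completed the 10 largest: miR-126a-3p, and miR-143-3p and miR-486a-5p, which had no matched sequence either.

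Within the let-7 family the mix of members varied less than the family itself. The coefficient of variation (CV, SD over mean) of the CPM summed over the let-7 family was 26.3%, whereas the share of let-7f-5p within the family had a CV of 4.57%. let-7f-5p made up 28.8% ± 1.31 of the family, let-7a-5p 22.8% ± 1.36, let-7c-5p 21.9% ± 1.17 and let-7g-5p 8.18% ± 0.351. These shares share a denominator, so they cannot move independently. Some smaller members were less steady, such as let-7i-5p at 4.53% ± 0.680.

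The same held for the 5 members of the miR-30 family above 100 CPM. In this family, whose summed CPM had a CV of 24.2%, miR-30a-5p made up 43.5% ± 1.51, miR-30d-5p 31.0% ± 2.13, miR-30c-5p 12.2% ± 0.980, miR-30e-5p 9.40% ± 1.30 and miR-30b-5p 3.80% ± 0.524. miR-384-5p, which carries the same seed, was nearly absent. miR-16-5p made up 82.5% ± 0.660 of its family of 6. There the summed CPM had a CV of only 9.57%, and the share of the minor member miR-15a-5p varied more than that, with a CV of 17.4%. Among the collagen-targeting members of the miR-29 family, miR-29a-3p made up 81.1% ± 3.11, miR-29c-3p 17.6% ± 3.11 and miR-29b-3p 1.30% ± 0.0254.

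**Figure D2:**
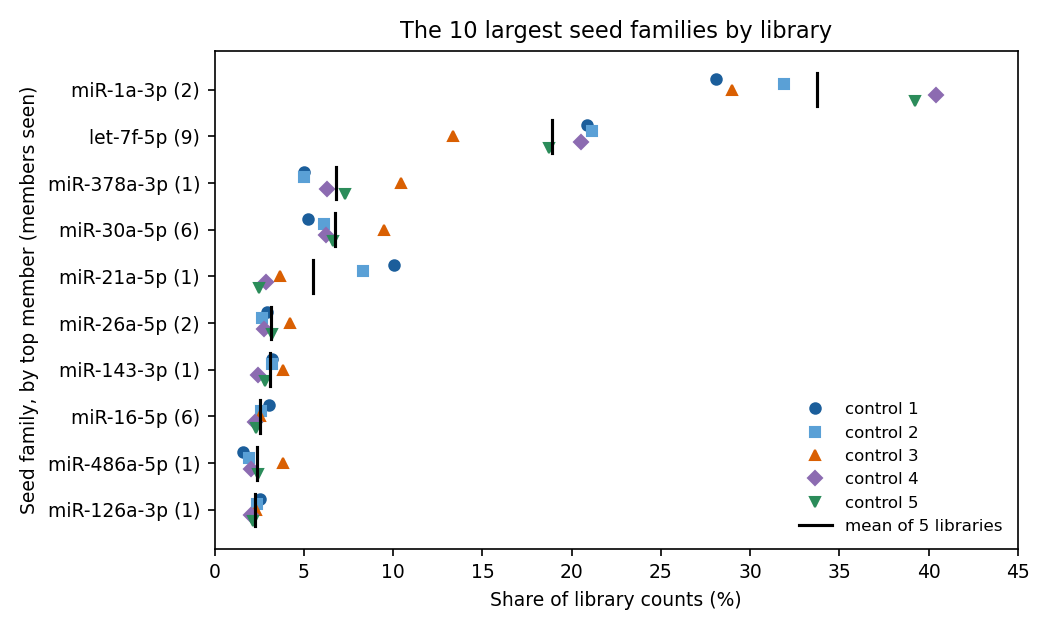
Share of library counts of the 10 largest seed families in each control library (points) with the mean of the 5 libraries (black bar). The let-7 family drops to 13.4% in control 3, where the miR-30 family and miR-378a-3p are highest, and miR-21a-5p is highest in controls 1 and 2.

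The heart was checked through lists of miRNAs linked to cell types. The lists rest on general knowledge, and their members are not exclusive to a cell type. In whole tissue, fewer cells of a type and less RNA per cell cannot be told apart. The 15 muscle miRNAs found in the table summed to 34.3% ± 5.78 of counts, above every other list in each library. All but a small part of this was miR-1a-3p. It outweighed the 14 others together 59.5 ± 12.7 times, and without it the list held 0.582% ± 0.121.

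Muscle miRNAs other than miR-1a-3p did not rank high. Of the 50 most abundant miRNAs 3 were in the muscle list and 47 were not, and 31 miRNAs lay above miR-499-5p, the second muscle miRNA. miR-499-5p stood at rank 32 with 2996 ± 1151 CPM, miR-133a-3p at rank 42 with 1620 ± 372, miR-208a-3p at rank 66 with 605 ± 266, miR-133b-3p at rank 81 with 430 ± 132 and miR-208b-3p at rank 108 with 181 ± 43.9. The other 9 lay at rank 205 or lower, including the 5p arms of the miR-1a and miR-208 hairpins and miR-206-3p, a miRNA of skeletal muscle, at 17.9 ± 4.29 CPM.

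The ratio of miR-1a-3p to miR-133a-3p, which are transcribed from shared clusters, was 219 ± 62.6, with 192, 247, 123, 283 and 249 in controls 1 to 5. That of miR-133a-3p to miR-133b-3p was far steadier between libraries, at 3.85 ± 0.357. Both pairs kept their order in every library.

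The hairpin of miR-208a lies in an intron of Myh6 (GRCm38 chr14:54949060-54949142, minus strand), which encodes the α-myosin heavy chain of the adult mouse heart. That of miR-208b lies in an intron of Myh7 (chr14:54975700-54975776, minus strand), which encodes the fetal β form, and that of miR-499 in an intron of Myh7b (chr2:155622880-155622958, plus strand). miR-208a-3p was at 277, 421, 961, 659 and 710 CPM in controls 1 to 5, and miR-208b-3p at 196, 162, 251, 149 and 147. Their ratio was therefore 1.41, 2.59, 3.82, 4.42 and 4.84, always above 1 but lowest in controls 1 and 2. miR-499-5p was at 1954, 2122, 2473, 3896 and 4534 CPM and was highest in controls 4 and 5. It was at 5.40 ± 1.74 times the level of miR-208a-3p.

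Among the other lists, the fibroblast list came second at 7.44% ± 4.41, led by miR-21a-5p and miR-199a-3p. It held 13.4%, 10.8%, 5.20%, 4.13% and 3.61% of counts in controls 1 to 5, and 4.31% on average without controls 1 and 2. The endothelial list held 3.23% ± 0.223. It was led by miR-126a-3p and miR-126a-5p (0.815% ± 0.0200), whose hairpin lies in an exon of the endothelial gene Egfl7 (chr2:26591357-26591429, plus strand). The smooth muscle list held 3.18% ± 0.545, nearly all of it miR-143-3p, with miR-145a-5p at 535 ± 138 CPM.

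The erythroid list held 2.43% ± 0.906, nearly all of it miR-486a-5p, which muscle also expresses, with miR-144-3p at 486 ± 293 CPM. The leukocyte list held 0.219% ± 0.0399, with miR-155-5p at 591 ± 70.4 CPM and miR-146a-5p at 510 ± 98.2 as its most abundant members. miRNAs typical of other organs summed to 0.0966% ± 0.00626. Their most abundant members were miR-9-5p of neural cells at 314 ± 68.8 CPM and miR-194-5p of gut and liver at 185 ± 32.0. The neuronal miR-124-3p had no count in any of the 5 libraries.

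**Figure D3:**
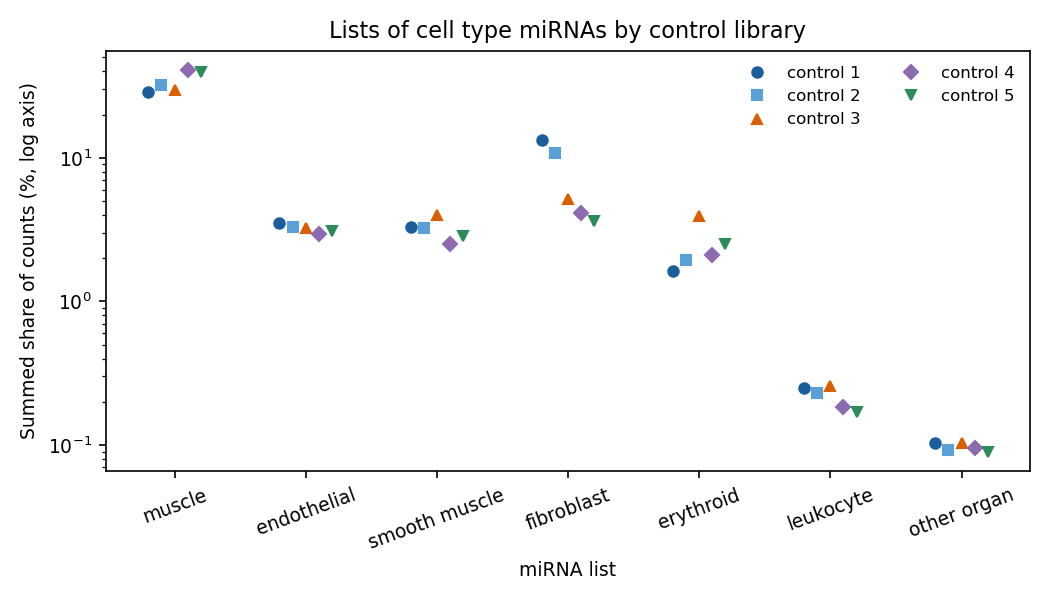
Summed share of counts (log axis) of 7 lists of miRNAs linked to cell types, 1 point per control library. The muscle list is the highest in every library, and the fibroblast list falls from 13.4% in control 1 to 3.61% in control 5 while the endothelial list stays between 2.95% and 3.54%.

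Which arm was dominant was tested in 203 of 375 hairpins whose arms have names that differ only in the ending -5p or -3p. Hairpins with an arm named by copy were not paired. Among these were miR-1a, with miR-1a-1-5p and miR-1a-2-5p, and miR-24, with miR-24-2-5p. The counts of the 2 arms within each library were compared with edgeR's quasi-likelihood test, with the library as a block, at an adjusted p of 0.05. The 5p arm was higher in 101 hairpins (49.8%) and the 3p arm in 88 (43.3%), and 14 were not called. Against a bound of 2-fold (glmTreat of edgeR), the 5p arm was higher in 98 (48.3%) and the 3p arm in 81 (39.9%). The same arm was higher in all 5 libraries in 190 of the 203.

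Dominance was mostly strong. From counts summed over the 5 libraries, the median ratio of the dominant to the minor arm was 32.5. The ratio exceeded 10 in 141 hairpins, 100 in 73 and 1000 in 15. The tested hairpins held 43.5% of all counts, and 95.7% ± 0.407 of those came from the dominant arm. Their 5p arms held 53.1% ± 4.29 of those counts, so neither side prevailed by much among the tested hairpins. This does not extend to all counts, because miR-1a-3p, a 3p arm with 33.7% of counts, was not among them.

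The hairpins with the most exclusive 5p arm, among those of at least 100 CPM, were miR-155, miR-34a, miR-21a, miR-20a, miR-146a, let-7g, miR-181d, miR-99a, miR-93 and miR-497a. miR-155, known from activated immune cells, had 28375 counts of its 5p arm against 3 of its 3p arm, a ratio of 9458 (95% counting interval 3236 to 45864). miR-21a, whose hairpin lies at chr11:86584067-86584158 (minus strand) in an exon of Vmp1, had 2708416 counts against 743, a ratio of 3645. Intervals of this kind cover counting error only. The 5p share of miR-21a was 99.94% or more in every library.

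The most exclusive 3p arms were those of miR-320, miR-25, miR-143, miR-107, miR-328, miR-29a, miR-221, miR-203, miR-23b and miR-27b. miR-320 had 51931 counts of its 3p arm and none of its 5p arm, at least 17310-fold higher against a floor of 3 counts over the group. miR-25, one of 3 hairpins within Mcm7, had 175877 counts against 39, a ratio of 4510, and miR-143 a ratio of 2651. The largest adjusted p of edgeR's glmTreat among these 20 hairpins was 3.83e-08, for miR-320.

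Balanced hairpins were few, and the 10 most even of at least 100 CPM ran from miR-361 to miR-411. miR-361, in an intron of Chm (chrX:113074824-113074893, minus strand), had a 5p share of 51.2%, 48.2%, 59.2%, 53.7% and 57.3% in controls 1 to 5. Its arms were not called different (edgeR quasi-likelihood adjusted p = 0.17). The 5p share of miR-151 was 43.6% ± 1.23 and that of miR-140, known from cartilage, 42.0% ± 6.0. miR-145a had 68.5% ± 6.78 from its 5p arm and miR-423 31.0% ± 3.62, and neither passed the 2-fold bound.

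miR-126a stood out by its level, because both arms were abundant. Its 3p arm was at 22784 ± 2440 CPM and its 5p arm at 8274 ± 1588. The 5p share of 26.5% ± 2.02 varied only between 23.6% and 28.6%, a log2 ratio of 5p to 3p of -1.48 (SE 0.11), past the 2-fold bound (edgeR glmTreat adjusted p = 0.00017). miR-28a at 71.6% ± 3.59, miR-142a of blood cells at 27.3% ± 4.65 and miR-411 at 73.9% ± 4.39 passed that bound as well.

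In some hairpins the ratio of the arms itself moved between libraries. miR-144, expressed in red blood cell precursors (hairpin at chr11:78073005-78073070, plus strand), had a 5p share of 52.1%, 40.0%, 35.6%, 29.4% and 26.2%. The 5p arm was the higher one in control 1 only. Its 3p arm was at 129, 257, 525, 681 and 837 CPM and its 5p arm at 141, 172, 290, 283 and 297, so both arms were lower in controls 1 and 2. Among 53 hairpins whose minor arm averaged at least 100 counts, the arm ratios of miR-144, miR-21a, miR-208a, miR-148a and miR-499 varied most, with an SD of the log2 ratio of 0.63, 0.63, 0.60, 0.60 and 0.58. The median SD of the log2 ratio there was 0.29, against 0.30 for the log2 level of the dominant arm.

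**Figure D4:**
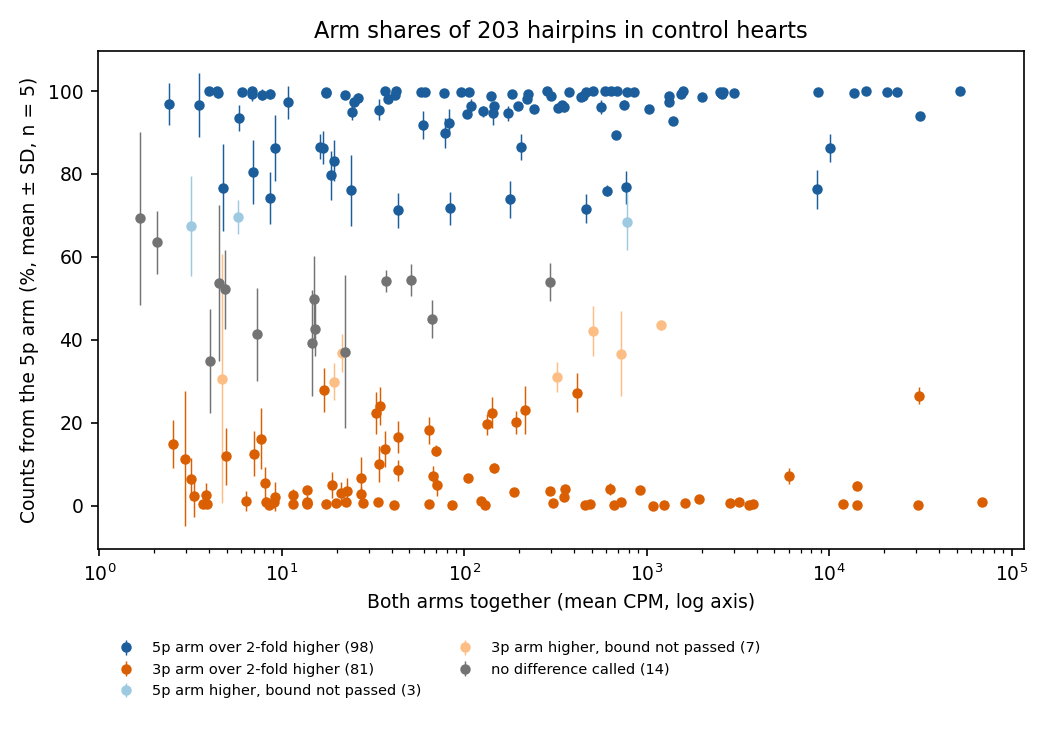
Percentage of counts from the 5p arm (mean ± SD, n = 5) of 203 hairpins against the level of both arms together (mean CPM, log axis), coloured by call. Most hairpins lie near 0% or 100%. Those between 40% and 60% are few, and miR-126a is the point at 26.5% above 10000 CPM.

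The dominant arms differed from the minor ones in their first base. A U at the 5′ end is favoured by Argonaute proteins. Of 146 hairpins past the 2-fold bound with both arms in the sequence table, the dominant arm began with U in 77 (52.7%) and the minor arm in 27 (18.5%). U stood only on the dominant arm in 62 and only on the minor arm in 12. The excess was present on both sides. Dominant 5p arms began with U in 61.9% of 84 hairpins and dominant 3p arms in 40.3% of 62, against 22.6% and 12.9% of the respective minor arms. Weighted by counts, 85.9% ± 1.53 of counts with a matched sequence began with U, and 9.72% ± 1.18 with A. Matched sequences held only 50.1% ± 6.13 of all counts, and miR-1a-3p and miR-378a-3p were not among them. Of the 20 most abundant miRNAs 15 matched a sequence, and 14 of these began with U; the exception was miR-199a-3p.

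The arm choice was repeated in the other hearts of the series. In the knockout libraries 199 of 201 hairpins tested in both had the same higher arm, as did all 178 that were past 2-fold in the controls. The 2 exceptions, miR-299a and miR-467d, were not called in the controls.

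Variation between libraries was measured as the CV of CPM in the 139 miRNAs of at least 100 CPM. The median CV was 18.9%, with quartiles of 12.5% and 29.6% and a range from 5.63% to 69.6%. Counting error alone gives at most 3.21% at these counts. In 6 miRNAs the CV exceeded 50% and in 24 it was under 10%.

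The 10 most variable miRNAs were miR-34c-5p (CV 69.6%), miR-144-3p (60.2%), miR-199a-5p (55.6%), miR-214-3p (53.5%), miR-21a-5p (52.8%), miR-379-5p (52.7%), miR-101a-3p (46.8%), miR-10b-5p (44.8%), miR-30e-3p (44.2%) and miR-208a-3p (43.9%). miR-34c-5p, a target of p53, was at 254, 242, 90.4, 66.6 and 53.6 CPM in controls 1 to 5. miR-21a-5p was at 82952, 81266, 31654, 34236 and 30191 CPM. In both, controls 1 and 2 were high and the other 3 low.

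The same split was seen in miR-379-5p, of the imprinted Dlk1-Dio3 cluster, at 903, 797, 345, 324 and 334 CPM. Controls 1 and 2 were also the highest, with a more gradual fall, in miR-199a-5p and miR-214-3p, each with a hairpin in the host transcript Dnm3os on chromosome 1. miR-199a-5p has another hairpin on chromosome 9, and its counts do not tell the hairpins apart. In controls 1 to 5 the level of miR-199a-5p was 1232, 978, 577, 388 and 332 CPM. That of miR-214-3p was 279, 184, 112, 91.0 and 90.4 CPM. Controls 1 and 2 were the lowest in 4 others. One was miR-144-3p, given above, and another was miR-208a-3p.

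The remaining 2 of these were miR-101a-3p, at 384, 466, 1244, 737 and 778 CPM, and miR-30e-3p, at 1122, 1272, 2158, 2310 and 3366. In contrast, miR-10b-5p, encoded in the Hoxd cluster, was at 995, 1095, 426, 1260 and 465 CPM and was low in controls 3 and 5.

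Membership of the most variable list depended on controls 1 and 2 together, whereas leaving out 1 library at a time kept 6 to 10 members. These controls were chosen after seeing them lie apart in most of the list, so a fall of those CVs was built in. Without both, the median CV was 13.6%, and 1 of the 10, miR-10b-5p at a CV of 65.7%, was still among the 10 most variable. The CVs of miR-21a-5p (6.40%), miR-379-5p (3.19%) and miR-214-3p (12.4%) then lay below that median. The other 6 stayed above it, from miR-208a-3p at 20.8%, miR-144-3p at 22.9% and miR-30e-3p at 25.2% to miR-34c-5p at 26.6%, miR-199a-5p at 29.7% and miR-101a-3p at 30.7%. In a principal component analysis of the 5 libraries, the first component, with 69.2% of the variance, placed controls 1 and 2 at -4.82 and -3.24 and controls 3 to 5 between 1.93 and 3.54. The second, with 22.3%, set control 3 apart at 3.47. The median absolute log2 difference was 0.17 between controls 1 and 2, 0.16 between controls 4 and 5, and 0.42 between controls 1 and 5.

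The cell type lists were set beside this split, and their part in it was not tested. The fibroblast list held 10.8% to 13.4% of counts in controls 1 and 2 and 3.61% to 5.20% in the others, but this sum is mostly miR-21a-5p and includes miR-199a-5p and miR-214-3p, which are among the variable miRNAs themselves. Of its other members, miR-199a-3p, miR-214-5p and miR-152-3p were also higher in controls 1 and 2. For miR-199a-3p the level was 21000, 18848, 8987, 9728 and 9001 CPM in controls 1 to 5. In contrast, miR-10b-5p, miR-708-5p and miR-34a-5p did not follow. miR-708-5p was lower in controls 1 and 2, at 8.65, 5.96, 19.8, 18.9 and 25.5 CPM in controls 1 to 5. miR-34a-5p was at 701, 611, 593, 692 and 838 CPM, with no such split. The erythroid list, nearly all miR-486a-5p but including miR-144-3p, held 1.62% to 1.95% in controls 1 and 2 against 2.10% to 3.94%. The TMM factors were 1.21, 1.02, 1.16, 0.845 and 0.825 in controls 1 to 5. GC content was set beside the log2 deviation of each library across 118 miRNAs with a sequence. Their Spearman correlation was 0.26, 0.098, 0.082, -0.43 and -0.21 in controls 1 to 5, as a description of miRNAs that share a library. The part of scaling or GC content in the split was not tested.

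The 10 least variable miRNAs were miR-103-3p (CV 5.63%), miR-106b-3p (6.57%), miR-20a-5p (6.76%), miR-25-3p (6.92%), miR-151-5p (7.18%), miR-320-3p (7.20%), miR-322-5p (7.42%), miR-27b-3p (7.47%), miR-15b-5p (7.80%) and miR-24-3p (8.24%). miR-103-3p, which comes from introns of the pantothenate kinase genes Pank2 and Pank3, was at 1899, 2041, 1872, 1853 and 1746 CPM in controls 1 to 5. miR-27b-3p was at 11382, 12668, 10861, 11348 and 12852 CPM, and miR-24-3p at 9172, 9134, 8114, 7556 and 8259.

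This low-variation list depends on the scaling. With library totals in place of TMM factors none of the 10 was among the least variable and the median CV was 24.7%, and with the authors' normalized values 4 were. The CV of miR-103-3p was then 20.1% and 7.02% respectively. Of the 10 most variable, 6 remained with library totals. In the knockout libraries, scaled the same way, all 10 most variable miRNAs lay above the median CV and all 10 least variable below it, with 5 and 3 among the own 10 of those libraries. The Spearman correlation of the CVs of both groups over the 139 miRNAs was 0.66.

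**Figure D5:**
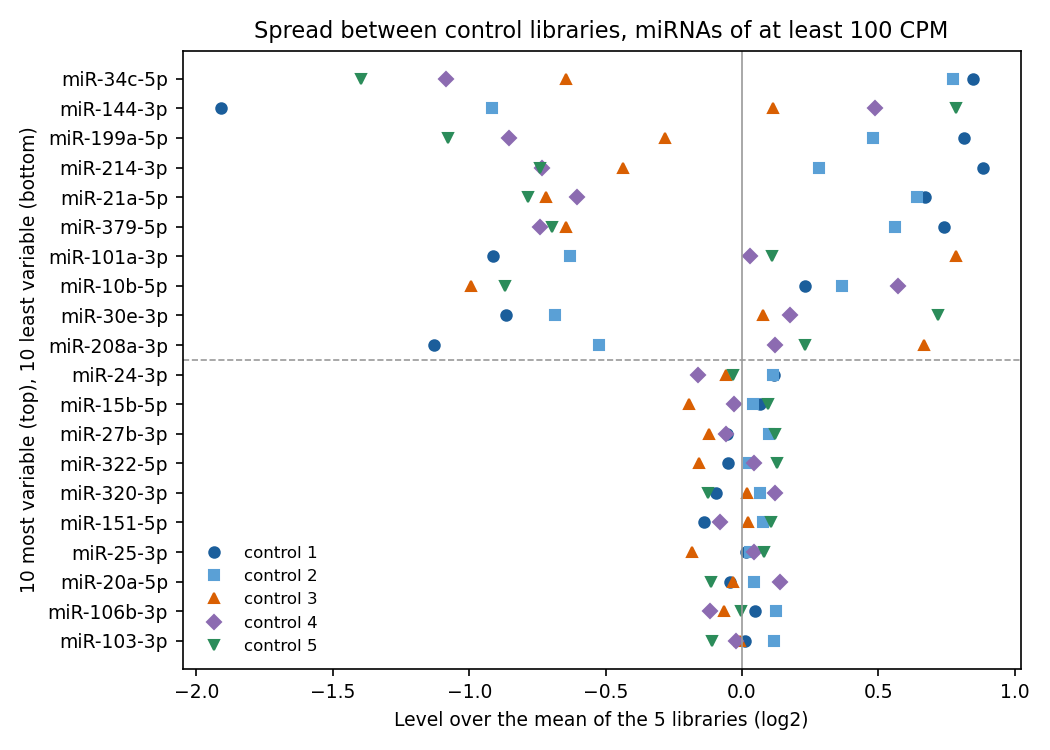
Level of the 10 most and 10 least variable miRNAs in each control library, as the log2 ratio to the mean of the 5 libraries (CPM). Controls 1 and 2 lie together on one side for 9 of the 10 most variable miRNAs and apart from the other libraries, while the 10 least variable all stay close to 0.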

How the data were processed

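Small RNA libraries from 10 samples of heart RNA were made with a NEXTflex kit, per the labels' protocols. The authors deposited raw counts per mature miRNA for 1139 miRNAs. They also deposited a normalized signal, the count divided by 1 factor per library. Tools named in the submitters' processing notes, with no role given, are DESeq2, STAR, Bowtie and cutadapt 1.10, and the build is GRCm38. How multi-matching reads were counted, and whether molecular identifiers were used, is not given in the sources used here. Samples were grouped by genotype label. Members and lists were chosen with earlier results of these data known.

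Rows with identical counts in all 10 libraries and at least 100 counts in total (7 sets, among them the a and b copies of miR-486-5p and of miR-199-3p) were counted once, which left 1131. These repeated rows were 3.71% ± 0.759 of deposited counts. Deposited depth was 7526091 to 11608900 counts per library, and no library repeated another within sampling noise. A miRNA joined a seed family through its RefSeq sequence (949 of 1131 matched, holding 50.1% ± 6.13 of counts) or, for 22, through its name where all matched members of that name and arm shared 1 seed; others stood alone. Arms were tested with edgeR 4.0.16 (R 4.3.3, quasi-likelihood test and glmTreat, library as block, filterByExpr on both arms, Benjamini-Hochberg adjustment over 203 hairpins, threshold 0.05), on code tested on simulated data; limma 3.58.1 and DESeq2 1.42.0 were alternatives. RefSeq (GRCm38.p6) gave the hairpin positions, and GENCODE the host genes.

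The named miRNAs are the 20 most abundant, the 10 largest families with their top members, the 10 largest arm ratios per direction and the 10 most even hairpins of at least 100 CPM, the 10 highest and lowest CVs of at least 100 CPM, all muscle miRNAs, and the 2 most abundant of each other list. Alternatives covered scaling, filters, tests, repeated rows and left-out libraries.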

Additional observations from a re-analysis of the deposited data

Results flagged for a closer look

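The check covered 105 quantities, which were miRNA levels, arm shares and a few library measures such as the deposited total. In each, the distance of the highest or lowest control library from its nearest neighbour was compared with the whole range of the 5 libraries. In 8 this share of the range passed 0.71, where chance alone gives about 5.25, or 1 in 20.

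Control 3 stood apart in 5 of the 8. Its miR-423-3p level was 319 CPM against 192 to 215 in the others (0.8212 of the range), and its miR-25-3p level 3216 CPM against 3687 to 3866 (0.7249). Its miR-1b-3p level, 0.603 CPM, rests on a handful of counts (0.7215). The 5p shares of miR-21a, 99.94% (0.7831), and miR-181d, 99.84% (0.7335), were its lowest values among the libraries. That of miR-181d rests on few counts, as its 3p arm had 6 over the 5 libraries.

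Control 4 stood apart in the neural miR-9-5p, at 433 CPM against 265 to 313 (0.7123). Control 1 did so in 2 arm shares that rest on few counts. Its 5p share of miR-155 was 99.95% while the others were at 100% (1 of the range), and its 5p share of miR-107 was 0.14% against at most 0.0258% (0.8152).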

How the results depend on the processing

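No paired analysis was possible because the replicate numbers recur only between the genotypes, which were not compared. Of 115 values recomputed under alternatives, 95 stayed and 20 moved. The bound was the SD between libraries for a share and 1.5 times for a count. For the median CV it was a standard error of 2.83 percentage points, taken from leaving out each library in turn. All shares of counts stayed, including those of miR-1a-3p, the 10 most abundant miRNAs and the 5 largest families. For left-out libraries this could hardly be otherwise. Leaving out 1 or 2 of 5 libraries moves the mean share of a fixed set by less than 1 SD. The fibroblast list counted as kept although it went from 7.44% to 4.31% without controls 1 and 2. With only the 98 hairpins of at least 100 CPM tested, 58 had a higher 5p arm, 39 a higher 3p arm, 57 a 5p arm past 2-fold and 36 a 3p arm past 2-fold, since fewer hairpins enter. No called hairpin turned to the other arm in any fit, and at most 2 uncalled ones did. The median CV, 18.9%, became 24.7% with library totals, 21.8% with miRNAs of at least 10 CPM and 13.6% without controls 1 and 2, a choice made after seeing the data. Of the 10 most variable miRNAs, 6 remained with library totals, 5 at 10 CPM, 2 at 1000 CPM, 1 without controls 1 and 2, and 6 to 10 when leaving out each library in turn. Of the 10 least variable, 0 remained with library totals, 4 with the authors' normalized values, 6 at 1000 CPM, 3 without controls 1 and 2, and 3 to 7 when leaving out each library in turn. Raising the minimum to 1000 CPM removes members from the tested set, and for the other settings the cause was not tested. Depth limits mainly the minor arms: 4 tested hairpins had none and 19 had 1 to 3 counts of theirs.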
